A study of Mus musculus with 2 samples.

Results

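The genes described here are 38 genes of sugar breakdown and of the response to low oxygen, out of 31055 gene features measured. They were chosen by symbol from textbook roles, with earlier results of these data known. Of them, 20 are glycolytic enzymes and their regulators, and 18 are targets or regulators of the hypoxia-inducible factor (HIF). All 38 had at least 1 unique molecular identifier (UMI, a tag that marks one captured transcript) in the cells kept. Aldoa had 2 feature rows, which were summed.

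Glycolysis splits glucose into pyruvate in the cytosol, and lactate dehydrogenase turns pyruvate into lactate, which lets the pathway run without oxygen. Several steps have isozymes, which are separate genes for one reaction. When oxygen is low, prolyl hydroxylases of the Egln family stop marking the HIF alpha subunit for destruction, and HIF then binds short DNA motifs and raises transcription of glycolytic enzymes, of Slc2a1 (a glucose transporter), Vegfa (a growth factor for blood vessels) and Adm (adrenomedullin, a vasodilator peptide), and of genes that limit mitochondrial oxygen use. In tumours, regions far from vessels are low in oxygen, and both the cancer cells and the immune cells there can mount this response.

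The cells were immune cells from a mouse tumour harvested 16 days after B78ChOVA cells, a melanoma line, were injected in 50 µl with Matrigel under the skin of the flank. Live sections of about 160 µm were printed by light with DNA barcodes, so that cells of 3 regions carried different tags (ZC1, ZC2 and ZC3), before dissociation, sorting and droplet sequencing. A gene expression library and a spatial barcode library were made from the same set of cells, and 303742 barcodes held UMIs of both. The number of tumours, the mouse strain, sex and age, and what tissue each tag covered were not given in the sources used here. There were no replicates, so no comparison could be tested: every interval below is a 95% interval that covers counting error only, and a gene is called higher or lower past 1.5-fold.

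Of 6794880 barcodes, 4236 had at least 1000 gene UMIs and 500 genes and at most 10% mitochondrial UMIs, with a median of 23132 UMIs. They were put into classes by fixed marker genes, and each class name stands for that marker gate alone: 2406 macrophages (complement C1q genes), 433 monocytes (Ly6c2), 188 intermediate cells (both), 232 CD8 T cells, 87 CD4 T cells, 85 regulatory T cells (Tregs), 56 NK cells, 98 cDC2, 35 cDC1 and 36 migratory dendritic cells, 41 nonclassical monocytes and 35 melanoma cells. Of the listed markers that no gate used, Ms4a7, Adgre1 and Mrc1 of macrophages summed to 2108 counts per 1000000 gene UMIs (CPM) in macrophages and 318 CPM in monocytes, and Ccr2, Plac8, Chil3 and F13a1 of monocytes to 274 CPM in macrophages and 5793 CPM in monocytes. The label calls the cells immune, yet 35 passed the melanoma gate, which used every melanoma marker listed and so leaves none to check it. A further 208 barcodes with both T cell and macrophage markers were left out. So were 106 other T cells, 13 B cells, 4 neutrophils and 173 barcodes that passed no gate. Median depth ran from 5110 UMIs in CD4 T cells to 29681 in macrophages and 92059 in melanoma cells.

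Promoter sequences are shown for 6 members that the results below turn on: 4 HIF genes and 1 enzyme that were higher in macrophages holding hypoxia transcripts, and Hk3, the hexokinase that was not. HIF binds around the letters ACGTG or GCGTG, printed in capitals on either strand (CACGT and CACGC on the other). Each run is the 250 bases before a RefSeq gene start on the gene's strand (GRCm38.p6). Hilpda and Ldha had 2 starts each. For these the start with the most motifs, from 250 bases before to 50 after it, was picked. Egln3 (a prolyl hydroxylase that acts on HIF) lies at chr12:54203875-54204124, minus strand; Hilpda (a lipid droplet protein) at chr6:29272376-29272625, plus; Bnip3 (a receptor for removal of mitochondria) at chr7:138909507-138909756, minus; Ankrd37 (an ankyrin repeat protein) at chr8:45999851-46000100, minus; Ldha (the lactate-forming lactate dehydrogenase subunit) at chr7:46845554-46845803, plus; and Hk3 (hexokinase 3) at chr13:55021386-55021635, minus.
Egln3: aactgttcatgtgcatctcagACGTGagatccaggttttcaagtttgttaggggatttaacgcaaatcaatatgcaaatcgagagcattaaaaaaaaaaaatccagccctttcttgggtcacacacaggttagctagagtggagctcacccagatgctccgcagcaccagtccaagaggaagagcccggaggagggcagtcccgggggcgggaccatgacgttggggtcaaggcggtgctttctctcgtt
Hilpda: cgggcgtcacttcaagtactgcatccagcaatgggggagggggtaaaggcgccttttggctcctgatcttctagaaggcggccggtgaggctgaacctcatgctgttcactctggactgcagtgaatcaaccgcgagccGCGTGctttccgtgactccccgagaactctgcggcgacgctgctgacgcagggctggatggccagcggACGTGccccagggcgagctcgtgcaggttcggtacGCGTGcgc
Bnip3: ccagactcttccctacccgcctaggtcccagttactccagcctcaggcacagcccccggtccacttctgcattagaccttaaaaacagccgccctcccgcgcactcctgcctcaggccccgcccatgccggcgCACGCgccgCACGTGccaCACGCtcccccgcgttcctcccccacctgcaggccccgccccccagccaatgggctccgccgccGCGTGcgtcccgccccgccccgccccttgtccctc
Ankrd37: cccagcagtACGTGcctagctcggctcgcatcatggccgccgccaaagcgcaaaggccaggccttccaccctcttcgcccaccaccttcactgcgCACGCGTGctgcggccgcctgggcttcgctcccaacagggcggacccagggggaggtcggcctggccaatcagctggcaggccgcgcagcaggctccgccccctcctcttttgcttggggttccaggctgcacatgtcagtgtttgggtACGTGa
Ldha: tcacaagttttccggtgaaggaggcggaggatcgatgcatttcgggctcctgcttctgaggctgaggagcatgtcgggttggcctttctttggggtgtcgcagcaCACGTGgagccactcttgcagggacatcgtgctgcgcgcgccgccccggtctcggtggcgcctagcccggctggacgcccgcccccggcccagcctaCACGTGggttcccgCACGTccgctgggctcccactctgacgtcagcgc
Hk3: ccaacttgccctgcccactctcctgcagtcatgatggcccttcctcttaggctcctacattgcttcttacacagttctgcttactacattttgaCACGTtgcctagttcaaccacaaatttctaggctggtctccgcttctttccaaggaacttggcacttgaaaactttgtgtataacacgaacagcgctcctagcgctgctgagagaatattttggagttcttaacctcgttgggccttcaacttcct

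Egln3 and Hk3 each held 1 motif in these windows, starting at -229 and -156 relative to the gene start. Hilpda and Ldha each held 3, and Bnip3 and Ankrd37 each held 4, with the palindrome CACGTG, which reads as ACGTG on both strands, counted once. RefSeq promoters were found for 36 of the 38 members; Bnip3l and Ndrg1 are named only. In the window of 300 bases that also takes in the 50 after the start, at least 1 motif was present for 17 of 20 glycolytic genes and 16 of 16 HIF genes. The share was 46.7% over 27025 genes in the table and 67.7% over the 9215 of them that were compared in the macrophage split by hypoxia transcripts below. Every gene was counted by its start with the most motifs. The 27025 genes had 32851 promoters, while Pfkm and Ak4 had 4 each and Aldoa had 3, and more starts give more room for a match. The glycolytic genes without a match were Gpi1, Tpi1 and Eno2. A match describes letters in the window and is not evidence of binding.

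Melanoma cells held the highest levels of most members. Summed over the list, the 20 glycolytic genes reached 22426 CPM in melanoma cells, 13719 in macrophages, 10934 in Tregs, 10894 in intermediate cells, 9708 in CD8 T cells, 8852 in CD4 T cells, 7953 in monocytes, 6735 in cDC2, 6461 in cDC1, 6109 in NK cells, 5285 in nonclassical monocytes and 5151 in migratory dendritic cells. The 18 HIF genes summed to 6086 CPM in melanoma cells and, in the immune classes listed, to between 972 in migratory dendritic cells and 2422 in macrophages. Outside these classes, the 173 barcodes that passed no gate held 14543 CPM of the glycolytic and 3483 CPM of the HIF genes, above macrophages in both. These barcodes held 1117 CPM of fibroblast and 230 CPM of melanoma markers, against 3.54 and 65.2 CPM in macrophages. They need not all be immune cells. Among the 12 classes, melanoma cells were highest for 14 of 20 glycolytic genes and 14 of 18 HIF genes. Among the immune classes, macrophages were highest for 10 and 8.

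**Figure D1:**
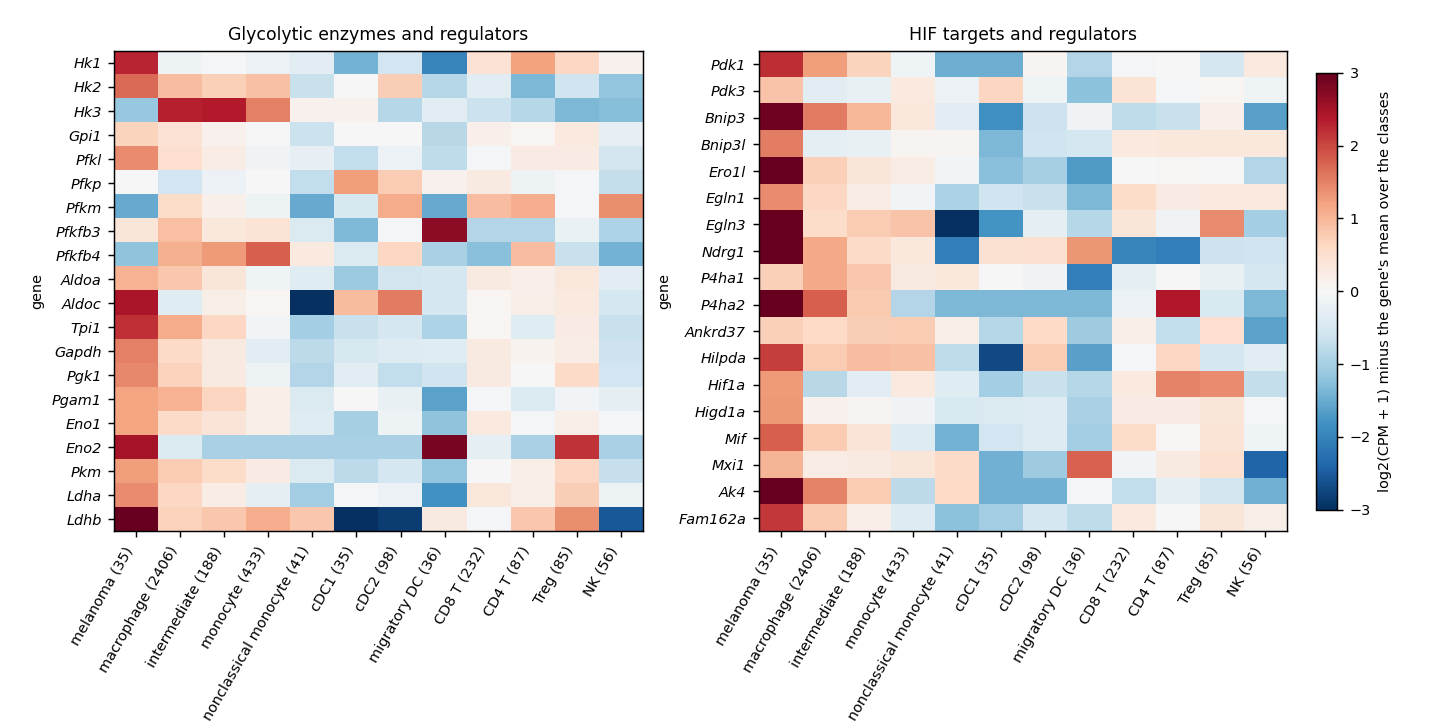
Level of each of the 38 genes in the 12 marker-gated classes, as log2(CPM + 1) minus that gene's mean over the classes; red is above the gene's own mean and blue below, so colours compare classes within a row and not genes with each other. The melanoma column is red in most rows, and Hk3, Pfkp, Hif1a and Pfkfb3 are rows whose highest class is another one.

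Isozyme use differed between the classes at the hexokinase and phosphofructokinase steps. Hexokinase, which traps glucose as glucose 6-phosphate, was read mainly from Hk3 in macrophages and from Hk1 in lymphocytes and melanoma cells. Hk3 stood at 92.4 CPM (83.3 to 102) in intermediate cells, 89.5 CPM (87.4 to 91.6) in macrophages and 50.2 CPM in monocytes, but at 10.5 in CD8 T cells, 6.07 in Tregs and 7.14 in melanoma cells. Hk1 stood at 177 CPM (163 to 192) in melanoma cells, 82.4 CPM (63.6 to 105) in CD4 T cells and 31.7 CPM in macrophages. Hk2 stood at 102 CPM in melanoma cells, 58.9 in macrophages, 57.0 in monocytes and 11.4 in CD4 T cells. As shares of hexokinase UMIs, Hk1, Hk2 and Hk3 made up 17.6%, 32.7% and 49.7% in macrophages, 22.5%, 41.2% and 36.3% in monocytes, 57.9%, 29.5% and 12.6% in CD8 T cells, and 62.0%, 35.6% and 2.49% in melanoma cells. In cDC2 the leading share was that of Hk2, at 61.5%.

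Phosphofructokinase commits sugar to the pathway, and Pfkp, the platelet form, held most of its UMIs in every immune class. Pfkp stood at 402 CPM (363 to 445) in cDC1 and 288 CPM in cDC2, above the other classes, and was 166 CPM in monocytes and 113 CPM in macrophages. Pfkp took 90.4% of phosphofructokinase UMIs in cDC1, 80.9% in cDC2, 81.6% in migratory dendritic cells, 73.6% in CD8 T cells, 71.3% in monocytes, 62.7% in nonclassical monocytes, 52.0% in macrophages and 47.0% in melanoma cells, with Pfkl, the liver form, making up nearly all the rest. Pfkm, the muscle form, had no UMI in melanoma cells, and its highest level, 6.46 CPM in NK cells, rested on 3 UMIs. Pfkfb3 and Pfkfb4 make and break down fructose 2,6-bisphosphate, the activator of this step. Pfkfb3 was highest in migratory dendritic cells at 115 CPM (89.7 to 145), where 1 cell held 17.1% of its UMIs, and 32.7 CPM in macrophages. Pfkfb4 was highest in monocytes, at 28.2 CPM, against 16.7 in macrophages and 2.68 in melanoma cells.

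Among the later enzymes, Gapdh, the dehydrogenase for glyceraldehyde 3-phosphate, stood at 7907 CPM in melanoma cells, 4165 in macrophages, 3357 in CD8 T cells and 1609.7 in nonclassical monocytes. Ldha stood at 2755 CPM in melanoma cells, 1721 in Tregs, 1597 in macrophages and 294 in migratory dendritic cells. Aldoc, the brain-type aldolase, was 9.0% of aldolase UMIs in cDC2, 8.70% in cDC1, 5.73% in melanoma cells and 0.942% in macrophages. Ldhb, the heart-type subunit, was 8.33% of lactate dehydrogenase UMIs in melanoma cells, 4.39% in monocytes and 1.79% in macrophages, and cDC1 held none of its UMIs. Enolase was read mainly from Eno1 in most classes, at 96.7% of Eno1, Eno2 and Eno3 UMIs in macrophages, 94.4% in CD8 T cells and 93.4% in melanoma cells. Eno3, the muscle enolase and not among the 38, held 66.2% of them in nonclassical monocytes and 65.4% in migratory dendritic cells, against 3.20% in macrophages. Eno2, the neuronal enolase, held 3.42% in migratory dendritic cells, from 8 UMIs, and 0.113% in macrophages.

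Hif1a itself, the oxygen-sensitive subunit, was highest in CD4 T cells at 424 CPM (380.2 to 472) and in Tregs at 405 CPM (369 to 444), whose intervals overlap. It stood at 368 CPM in melanoma cells, 184 in monocytes, 183 in CD8 T cells and 84.2 in macrophages. Mxi1, a MYC antagonist, was highest in migratory dendritic cells at 95.4 CPM (72.4 to 123), and P4ha1, a subunit of the enzyme that hydroxylates collagen, was highest in macrophages at 84.6 CPM. Ndrg1, a stress-induced gene, stood at 258 CPM in melanoma cells, 75.6 in migratory dendritic cells, 66.5 in macrophages and 6.67 in CD8 T cells.

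Free RNA, read from 68497 barcodes with 10 to 100 UMIs, itself held 12596 CPM of the glycolytic list and 2761 CPM of the HIF list. Its reach into cells was bounded with the C1q genes of macrophages, which were at 10620 CPM in free RNA and at 202 CPM, or 1.90% of that, in CD8 T cells. The corresponding share ran from 0.778% in cDC1 to 4.75% in melanoma cells. At those shares, free RNA would supply over 50% of a member's level for Ldhb in cDC2 and Hk3 in melanoma cells and for no other pair checked, and over 10% for 6 of 38 members in CD8 T cells and 2 of 37 in monocytes. Apart from melanoma cells, the classes checked were gated to under 20 C1q UMIs per 10000. Barcodes with more macrophage RNA went to other classes or were left out, so the gate itself limits these shares. Mouse genes such as Gapdh, Ldha, Pgam1 and Mif have near-identical pseudogene copies, so reads they share could be lost or misplaced. Whether this differed between the classes was not tested.

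Melanoma cells were set against macrophages, the largest class. These melanoma cells came with the sorted immune cells, held 505 CPM of C1q genes, and need not stand for the tumour's cells at large. Of 19 glycolytic genes compared, 10 were higher and 3 lower, where 39.3% of all 11274 genes compared were higher and 23.5% lower, and the list median of 1.54-fold stood beside 1.24-fold over all genes. Ldhb led, with 250.4 CPM in melanoma cells and 29.1 CPM in macrophages, a ratio of 8.61 (7.95 to 9.33), then Aldoc at 7.45 and Hk1 at 5.6. Hk3 was lowest, at 7.14 CPM in melanoma cells and 89.5 CPM in macrophages, a ratio of 0.0797 (0.0511 to 0.119), followed by Pfkfb4 at 0.160; Pfkm, with no UMI in melanoma cells, was the third, lower with 3 counts in place of 0 (a ratio of 0.283), though with cells thinned to 2000 UMIs 3 counts would stand above the macrophage level, at a log2 ratio of 4.08, and bound nothing. Of the HIF genes, 16 of 18 were higher, with a median of 2.51-fold, led by Egln3 at 8.50 (7.58 to 9.52), Ero1l (an oxidase of the endoplasmic reticulum) at 7.18 (6.84 to 7.53) and Ak4 (a mitochondrial adenylate kinase) at 6.07. The lowest were Egln1 at 1.75, Ankrd37 at 1.10 and P4ha1 at 0.734. The melanoma cells were 35 barcodes with a median of 92059 UMIs, and 1 cell gave 14.6% of their Egln3 UMIs and 11.7% of their Ero1l UMIs. They held 2118 against 1284 CPM of proliferation genes and 6.15% against 3.98% mitochondrial UMIs, and the part of these was not tested.

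Macrophages held more glycolytic and HIF transcripts than monocytes, and Hif1a itself went the other way. Of 19 glycolytic genes compared, 9 were higher in macrophages and 1 lower, where 29.3% of 11504 genes were higher and 16.5% lower; the list median was 1.42-fold and that of all genes 1.12-fold. Tpi1, the triosephosphate isomerase, led with 1101 CPM in macrophages and 480.4 CPM in monocytes, a ratio of 2.29 (2.20 to 2.39). Pfkm followed at 2.03 (1.01 to 4.75), on few UMIs, and Aldoa, the main aldolase, at 1.92 (1.86 to 1.98). Ldha (1.91), Gapdh (1.88), Pgam1 (1.82), Pgk1 (1.79), Hk3 (1.78) and Pfkl (1.55) were also past 1.5-fold, while Hk1 (1.02), Hk2 (1.03), Eno1 (1.31), Ldhb (0.755), Aldoc (0.727) and Pfkp (0.682) were not. Pfkfb4 was the 1 lower, with 16.7 CPM in macrophages and 28.2 CPM in monocytes, a ratio of 0.592 (0.498 to 0.708). Eno2 had too few UMIs to compare.

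Of the HIF genes, 9 of 18 were higher in macrophages and 2 lower, with a median of 1.52-fold. P4ha2, the other collagen hydroxylase subunit, had 606 UMIs in macrophages and 2 in monocytes, a ratio of 20.4 (5.62 to 169). Ak4 had 509 and 3 UMIs in the same order, a ratio of 11.4 (3.88 to 55.5). Pdk1, a kinase that inhibits pyruvate dehydrogenase, was at 46.9 CPM in macrophages and 17.3 CPM in monocytes, a ratio of 2.71 (2.19 to 3.38). Bnip3 (2.33), Fam162a (2.23), Mif (2.22), P4ha1 (1.85), Ndrg1 (1.80) and Egln1 (1.63) were the other 6. Hif1a was lower, with 84.2 CPM in macrophages and 184 CPM in monocytes, a ratio of 0.457 (0.427 to 0.490), as was Pdk3 at 0.637; Bnip3l, at 0.785, was within 1.5-fold. Of the other 52 pathway genes listed, 43 were compared: 10 were higher and 6 lower, and none of 6 pentose phosphate genes was higher. Macrophages were deeper (median 29681 against 10640 UMIs), held 1284 against 93.8 CPM of proliferation genes and 2592 against 5541 CPM of dissociation stress genes; the part of these in the differences was not tested.

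Within macrophages, the members varied widely from cell to cell. Over the 2279 macrophages with at least 10000 UMIs, the glycolytic sum was 118.3 UMIs per 10000 at the median, 49.8 at the 5th percentile and 286.3 at the 95th. The HIF sum was 18.1 at the median, with 7.01 and 64.8 at those percentiles. When each of these cells was thinned to 10000 UMIs, Pearson's r across cells of log2(UMIs per 10000 + 1) was 0.76 for Gapdh with Mif, a secreted cytokine, for Gapdh with Pkm, the pyruvate kinase, and for Tpi1 with Ldha. Among the 24 members with at least 0.5 UMIs per thinned cell, the median r was 0.40 within the 13 glycolytic genes, 0.32 within the 11 HIF genes and 0.34 between the lists. The cells share 1 library, so these values describe it only.

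To see which members went with transcripts of other HIF targets, macrophages with at least 3000 UMIs were split by 3 HIF targets that are not members, Slc2a1, Vegfa and Adm. Both these 3 genes and the members were chosen with earlier results of these data known. A random 2000 UMIs of each cell showed whether any of the 3 was present, and member levels were read only from the UMIs not drawn. The 615 macrophages with such a transcript held 19538 CPM of the glycolytic list, against 11771 in the 1741 without. The HIF list stood at 3973 CPM in cells with a transcript and 1897 CPM in cells without. Of 11882 genes compared, 5.30% were higher and 5.48% lower, and the median of all genes was 0.94-fold; of the members, 31 of 38 were higher and none lower.

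Of the 20 glycolytic genes, 16 were higher, with a median of 1.67-fold. Pfkfb3 led with 64.8 CPM in transcript-positive and 21.4 CPM in transcript-negative macrophages, a ratio of 3.03 (2.79 to 3.29). Hk2 had 117 and 39.0 CPM in the same order, a ratio of 3.01 (2.83 to 3.20). Eno2 followed at 2.99 (1.47 to 6.09), from 18 UMIs on each side. Pfkp (2.06), Pgk1 (phosphoglycerate kinase, 1.86), Aldoa (1.85), Tpi1 (1.80), Pfkl (1.71), Hk1 (1.69), Gpi1 (glucose 6-phosphate isomerase, 1.68), Ldha (1.65), Pgam1 (phosphoglycerate mutase, 1.59), Aldoc (1.59), Pkm (1.58), Gapdh (1.57) and Eno1 (1.57) made up the rest. The 4 genes that were not higher were an alternative isozyme each: Hk3, with 78.5 CPM in positive and 93.8 CPM in negative cells, had a ratio of 0.837 (0.788 to 0.888), Ldhb 0.781 (0.701 to 0.869), Pfkm 0.847 (0.608 to 1.16) and Pfkfb4 0.880 (0.766 to 1.01). Hk2 made up 48.6% of hexokinase UMIs in positive cells and 24.4% in negative cells, and Hk3 32.5% in positive and 58.7% in negative cells. Ldhb made up 1.06% of lactate dehydrogenase UMIs in positive cells and 2.21% in negative cells.

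**Figure D2:**
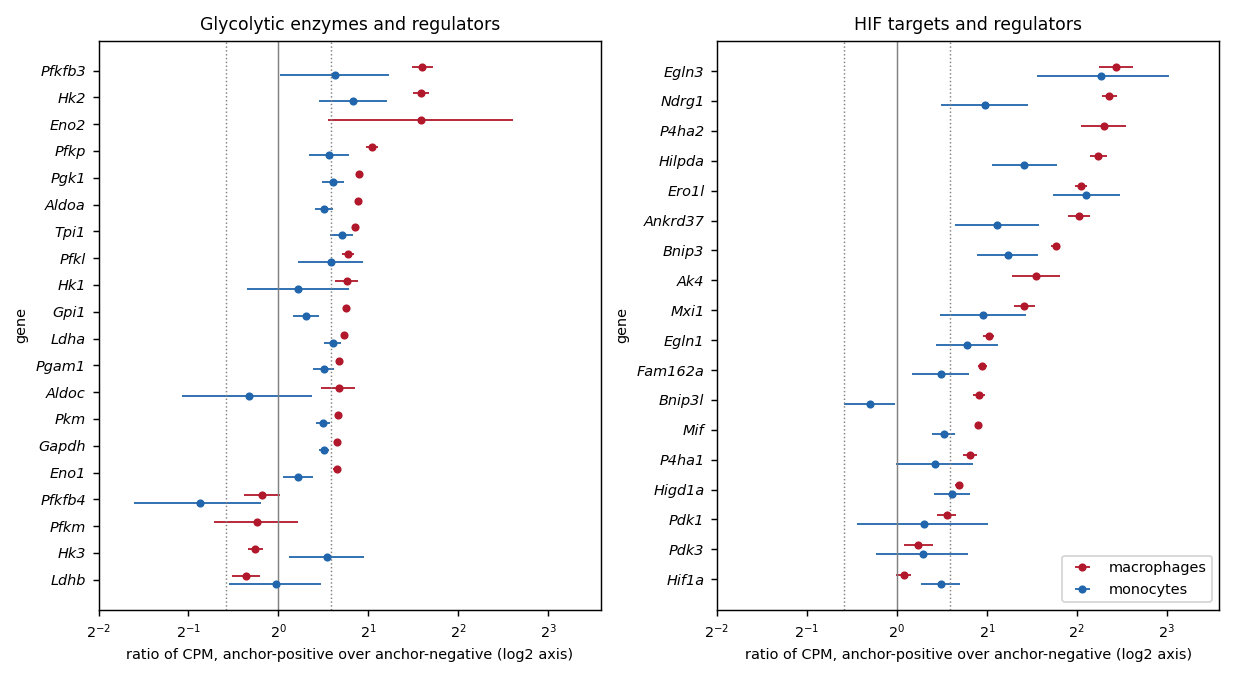
Ratio of each member's level in cells with a transcript of Slc2a1, Vegfa or Adm to that in cells without (log axis), for macrophages in red and monocytes in blue; bars are 95% intervals for counting error and dotted lines mark 1.5-fold either way. Glycolytic genes and HIF genes are in separate panels, and Hk3, Ldhb, Pfkm and Pfkfb4 are the members below 1 in macrophages.

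All 18 HIF genes had ratios above 1 and 15 were past 1.5-fold, with a median of 2.33-fold. Egln3 led with 37.2 CPM in positive and 6.89 CPM in negative macrophages, a ratio of 5.40 (4.75 to 6.15). Ndrg1 followed at 167 and 32.5 CPM in the same order, a ratio of 5.14 (4.85 to 5.46), and P4ha2 at 4.92 (4.14 to 5.86). Hilpda (4.72), Ero1l (4.13), Ankrd37 (4.06), Bnip3 (3.40), Ak4 (2.92) and Mxi1 (2.67) came next. Egln1 (2.03), Fam162a (1.93), Bnip3l (1.89), Mif (1.87), P4ha1 (1.75) and Higd1a (1.62) were also past 1.5-fold; Fam162a and Higd1a are mitochondrial proteins and Bnip3l, like Bnip3, is a receptor for removal of mitochondria. The members within 1.5-fold were the pyruvate dehydrogenase kinases Pdk1 (1.47) and Pdk3 (1.18), and Hif1a, with 87.7 CPM in positive and 83.2 CPM in negative cells, a ratio of 1.05 (0.995 to 1.12).

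The levels followed the number of transcripts found. With 0, 1, 2 and 3 or more UMIs of the 3 genes (1741, 386, 121 and 108 cells), the glycolytic sum was 11771, 17723, 21929 and 24390.4 CPM, and the HIF sum 1897, 3366, 4536 and 5888 CPM. In that order, Hilpda stood at 28.6, 78, 135 and 380.1 CPM, Bnip3 at 102, 269, 425 and 581, and Hk2 at 39.0, 85.7, 157 and 205. These were highest in the top bin. Some members levelled off: Pdk1 stood at 41.7, 60.4, 65.0 and 60.1 CPM, Fam162a at 156, 278, 360.0 and 329.8, and Eno1 at 361, 526, 665 and 614. Pfkfb4 was lowest in the top bin, at 17.2, 16.4, 15.4 and 9.05 CPM, as was Hk3 at 93.8, 81.0, 83.8 and 61.2 CPM.

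**Figure D3:**
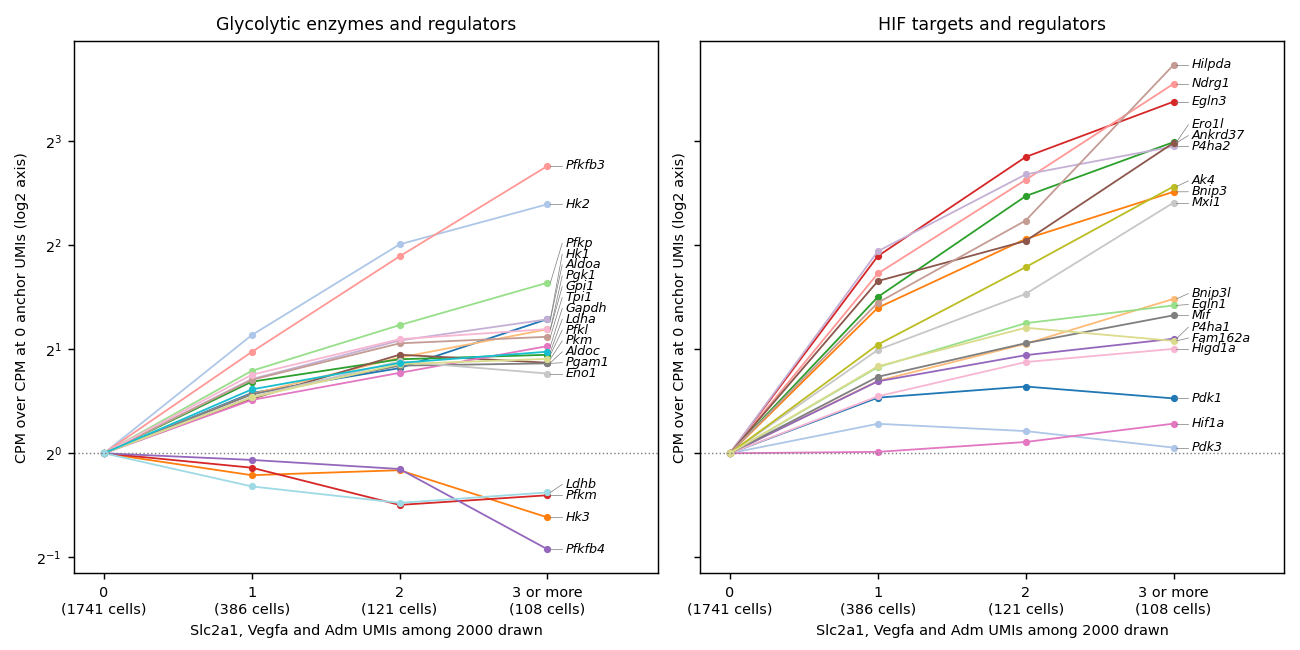
Level of each member in macrophages with 0, 1, 2 or 3 and more UMIs of Slc2a1, Vegfa or Adm in 2000 drawn UMIs, relative to its level at 0 (log2 axis), with the glycolytic genes and the HIF genes in separate panels. Eno2, with few UMIs, is left out; most lines climb, and those of Hk3 and Pfkfb4 end below their start.

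Of the 52 other pathway genes, 43 were compared in this split, and 14 were higher and 1 lower; 3 of the 14 are the genes that made the split. None of 6 pentose phosphate genes was higher or lower, while 12 of 17 other HIF targets were higher, or 10 of 15 without Vegfa and Adm, which made the split, with Ddit4 (an mTOR inhibitor) at 3.96, Arg1 (arginase) at 3.39 and Gys1 (glycogen synthase) at 2.90. Pdk2 was the 1 lower, at 0.535. Positive cells held 1185 CPM of proliferation genes and 3063 CPM of dissociation stress genes, against 1342 and 2412 CPM in negative cells, with 3 of 10 stress genes past 1.5-fold. Melanoma markers summed to 72.4 CPM in positive and 62.8 CPM in negative cells, and median remaining depth was 25801 and 28584 UMIs in the same order. The part of stress in the differences was not tested.

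The same split of monocytes, added after the data were examined, gave 134 positive and 296 negative cells. The glycolytic list stood at 10113 CPM in positive and 7110.2 CPM in negative monocytes, and the HIF list at 2111 CPM in positive and 1340.0 CPM in negative. Of 18 glycolytic genes compared, 6 were higher and 1 lower, and of 16 HIF genes 9 were higher, where 4.46% of 7666 genes were higher and 10.5% lower. Egln3 led again, with 40.1 CPM in positive and 8.32 CPM in negative monocytes, a ratio of 4.82 (2.93 to 8.12), then Ero1l at 4.30 (3.32 to 5.59) and Hilpda at 2.67 (2.08 to 3.43). Hk2 led the enzymes at 1.78 (1.37 to 2.30), with Tpi1 at 1.63 and Pfkfb3 at 1.55. Hk3 had a ratio above 1 here but within 1.5-fold, with 63.8 CPM in positive and 44.0 CPM in negative monocytes, a ratio of 1.45 (1.09 to 1.93). Ldhb (0.983) and Aldoc (0.799) were near or below 1, and Pfkfb4 was lower at 0.547 (0.328 to 0.877), a direction that reversed under 3 alternatives to log2 ratios of 0.01 to 0.07. Among HIF genes the lowest were Pdk1 (1.23), Pdk3 (1.22) and Bnip3l (0.813). Hif1a had a ratio of 1.40 (1.21 to 1.62), and P4ha2 and Ak4 had too few UMIs. Dissociation stress genes summed to 6781 CPM in positive and 4895 CPM in negative monocytes. Of 10 stress genes, 4 were higher and 1 lower, with ratios up to 6.83, and their part in the differences was not tested. Over the alternatives, the count of higher glycolytic genes ran from 2 to 11 and that of HIF genes from 9 to 13.

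**Figure D4:**
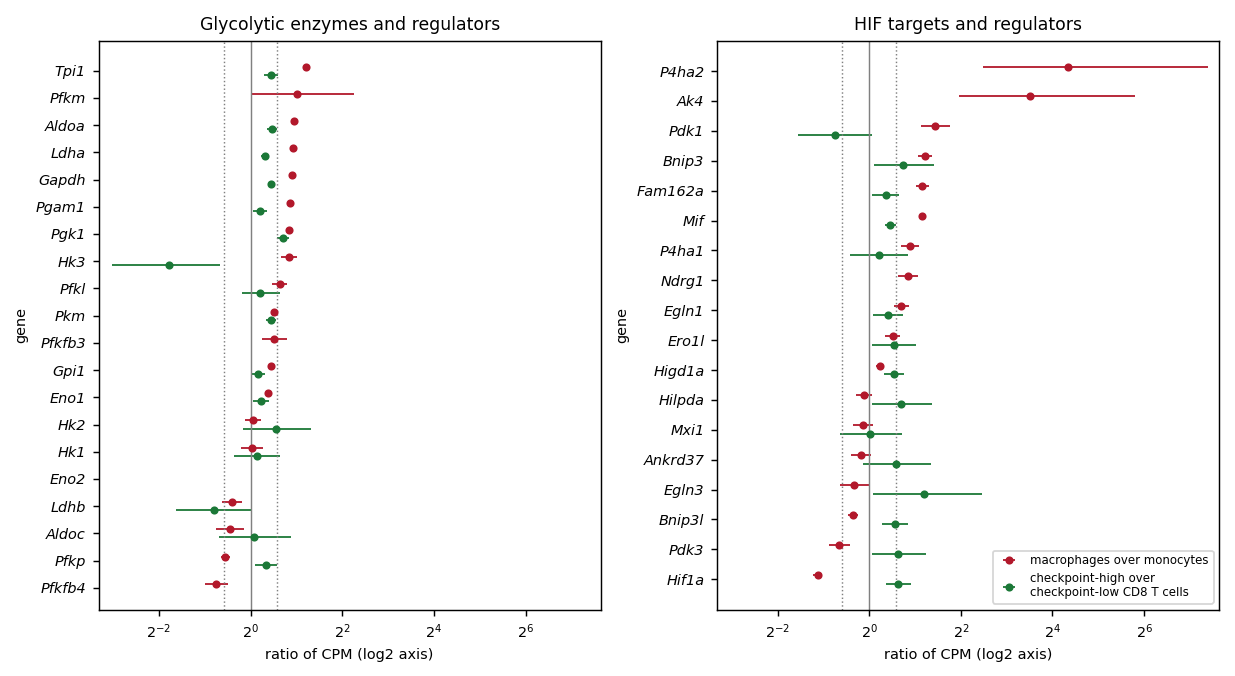
Ratio of each member's level in macrophages to that in monocytes (red) and in checkpoint-high to that in checkpoint-low CD8 T cells (green), on a log axis, with 95% intervals for counting error and dotted lines at 1.5-fold; glycolytic and HIF genes are in separate panels. In red, P4ha2 and Ak4 lie far to the right with wide intervals and Hif1a lies furthest to the left.

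CD8 T cells were split by the summed level of 7 genes of activation and exhaustion (Pdcd1, Havcr2, Lag3, Tigit, Tox, Entpd1 and Tnfrsf9), at 5 UMIs per 10000; 52 of 232 cells lay between 3 and 8. The 114 checkpoint-high cells held 10746 CPM of the glycolytic list and 2294 CPM of the HIF list, against 8147 and 1638 CPM in the 118 checkpoint-low cells. Ratios were above 1 for 14 of 16 glycolytic genes compared and 14 of 15 HIF genes, but most were small: 1 glycolytic gene was higher and 2 lower, and 5 HIF genes were higher and 1 lower, where 10.9% of 7400 genes were higher and 13.4% lower. The medians were 1.20-fold and 1.45-fold, against 1.02-fold over all genes. Pgk1 led the enzymes with 855 CPM in checkpoint-high and 526 CPM in checkpoint-low cells, a ratio of 1.63 (1.49 to 1.78), then Hk2 at 1.47 and Aldoa at 1.39. Hk3 was the lowest, from 10 UMIs in checkpoint-high and 23 UMIs in checkpoint-low cells, of which 1 cell gave 30.4%, a ratio of 0.289 (0.123 to 0.632); it reversed to log2 ratios of 2.25 with clusters in place of gates and 0.62 with cells thinned to 2000 UMIs. Ldhb, at 0.574 (0.322 to 1.01), reversed to a log2 ratio of 0.16 with clusters, and Aldoc was at 1.05. The clusters called CD8 T cells had 82.0% and 45.9% of their cells in the CD8 T cell gate, so clusters and gate differ in the cells they hold.

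Egln3 led the HIF genes in checkpoint-high cells, with 31 UMIs against 9 in checkpoint-low cells, a ratio of 2.29 (1.06 to 5.47). Bnip3 followed at 1.67 (1.1 to 2.67) and Hilpda at 1.63 (1.04 to 2.60). Hif1a had 214 CPM in checkpoint-high and 138 CPM in checkpoint-low cells, a ratio of 1.55 (1.30 to 1.87), and Pdk3 was also past 1.5-fold at 1.55. Pdk1 was the lowest at 0.599 (0.342 to 1.04), an interval that reaches past 1, with Mxi1 at 1.02 and P4ha1 at 1.16. Free RNA at its bound would supply 22.7% of the Ndrg1 level of CD8 T cells. Checkpoint-high cells were deeper (median 12247 against 6005.5 UMIs) and 3 of 10 proliferation genes were higher in them; the part of either in the differences was not tested. When cells with Mki67, Top2a or Birc5 transcripts were left out, Egln3 reversed to a log2 ratio of -0.35. The count of higher HIF genes ran from 2 with thinned cells to 9 with means over cells.

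Regions were compared within each class. The rule of at least 10 counts of one spatial barcode and 2 times the next left 5 ZC1 and 10 ZC2 macrophages and put 1460 in ZC3, the tag that made up 58.0% of spatial UMIs in free RNA, against 15.6% for ZC1 and 26.4% for ZC2. A cell was therefore given the barcode whose share of its spatial UMIs stood furthest above that barcode's share in free RNA, with at least 30 spatial UMIs and 1.5 times the next. Of the 2406 macrophages, this labelled 264 as ZC1, 247 as ZC2 and 688 as ZC3, and the rest were given no region. Because the label is relative to free RNA, a cell labelled ZC1 or ZC2 could still hold more ZC3 counts. The tags are named only by their labels, and the ZC1 and ZC2 comparisons share the ZC3 cells. The glycolytic list was at 12364 CPM in ZC1, 11346 in ZC2 and 15215 in ZC3, and the HIF list at 2250.4, 1971 and 2640.2 CPM in that order, so that ZC3 macrophages held the most of each.

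Between ZC2 and ZC3 macrophages, no member was higher in ZC2, and 1 of 19 glycolytic genes and 4 of 18 HIF genes were lower, where 5.96% of 10833 genes were higher and 4.34% lower. Tpi1 had 837 CPM in ZC2 and 1262 CPM in ZC3, a ratio of 0.663 (0.645 to 0.682), with Pgk1 at 0.686 and Ldha at 0.709 next. The other end held Ldhb (1.32), Pfkfb4 (1.31) and Aldoc (1.16). Ak4 (0.415, 0.257 to 0.642), Ndrg1 (0.458, 0.398 to 0.524), P4ha2 (0.627, 0.427 to 0.898) and Fam162a (0.635) were the lower HIF genes, while Hilpda (1.38), Mxi1 (1.17) and Hif1a (1.15) were above 1. Over the alternatives, 0 to 8 glycolytic and 3 to 8 HIF genes were lower. Between ZC1 and ZC3 macrophages, no glycolytic gene was past 1.5-fold, from Ldha (0.752), Tpi1 (0.759) and Pkm (0.791) to Pfkfb3 (1.13), Hk2 (1.19) and Pfkfb4 (1.32), where 8.67% of 10894 genes were higher and 5.66% lower. Hilpda was higher in ZC1, with 77.2 CPM in ZC1 and 46.0 CPM in ZC3, a ratio of 1.68 (1.51 to 1.86), and 1 cell gave 15.5% of its ZC1 UMIs; the ratio was 1.49 with doubled gates and 1.05 with cycling cells left out, so the call was lost in both. Hif1a (1.24) and Mxi1 (1.22) followed, and Egln1 (0.752), Fam162a (0.729) and Ak4 (0.609, 0.407 to 0.884) were lowest.

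Between ZC1 and ZC2 macrophages, the HIF genes Ndrg1 (1.69, 1.44 to 2.0) and P4ha2 (1.62, 1.05 to 2.53) were higher in ZC1, where 4.23% of 10018 genes were higher and 2.70% lower, and no glycolytic gene was past 1.5-fold. Both calls were lost with Leiden clusters, at 1.49 for Ndrg1 and 1.45 for P4ha2, and with cycling cells left out, at 1.26 for Ndrg1 and 0.809 for P4ha2, which then lay below 1. P4ha2 was also at 1.41 under the stricter cell filter. Pfkfb3 (1.40), Hk2 (1.33) and Hk1 (1.26) led the enzymes and Ldhb (0.836), Hk3 (0.825) and Aldoc (0.775) came last. Ak4 (1.47) was the third HIF gene from the top, and Pdk3 (1.01), Pdk1 (0.970) and Egln3 (0.970) were near 1. Proliferation genes summed to 902 CPM in ZC1, 1209 in ZC2 and 1471 in ZC3 macrophages, and median depth was 23992, 26008 and 33411 UMIs in that order. Dissociation stress genes summed to 3485, 2497 and 2371 CPM in the same order. Of 10 stress genes, 4 were higher in ZC1 than in ZC3, 4 higher in ZC1 than in ZC2, and 2 lower in ZC2 than in ZC3. The part of proliferation, depth and stress was not tested. The share of macrophages with a Slc2a1, Vegfa or Adm transcript in 2000 UMIs, counted after the data were examined, was 25% in ZC1 (19.8 to 30.8), 23.4% in ZC2 (18.2 to 29.2) and 28.6% in ZC3 (25.2 to 32.1), with intervals that overlap.

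**Figure D5:**
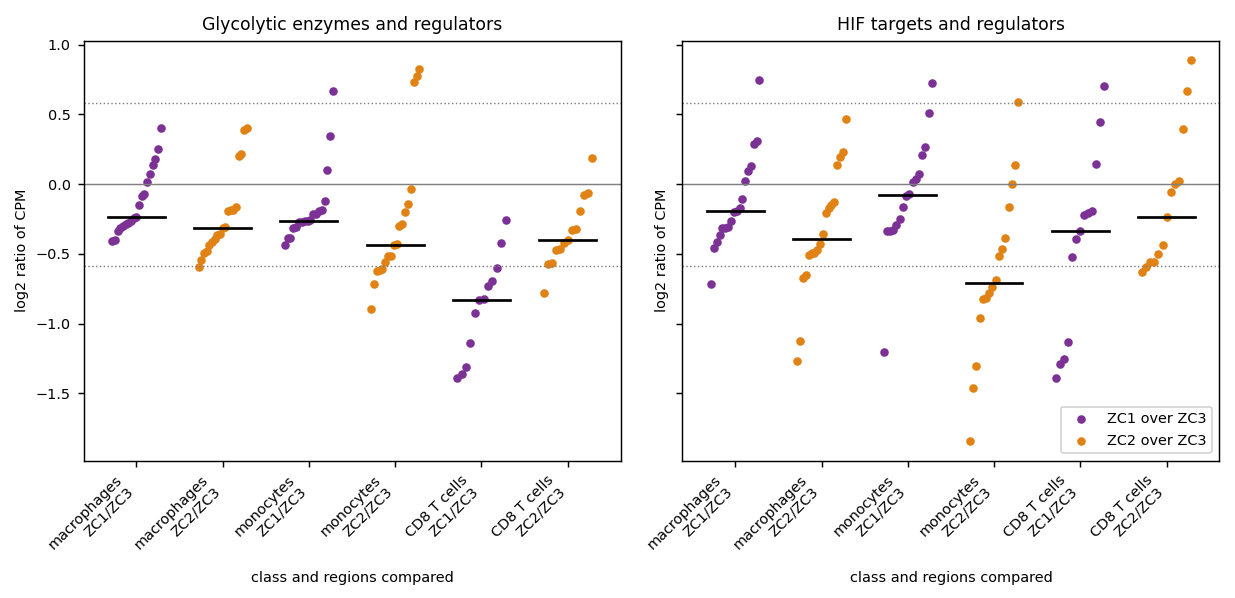
Log2 ratio of each member's level in ZC1 (purple) and ZC2 (orange) to its level in ZC3, in macrophages, monocytes and CD8 T cells; each point is a gene compared and black bars are medians. Most points lie below 0. The median lies furthest below for ZC1 CD8 T cells among the glycolytic genes and for ZC2 monocytes among the HIF genes.

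Monocytes (81 in ZC1, 92 in ZC2 and 115 in ZC3, with medians of 10591, 10918 and 10587 UMIs) had close depths and a larger ZC2 difference. Of 16 HIF genes compared between ZC2 and ZC3 monocytes, 9 were lower and 1 higher, and of 18 glycolytic genes 5 were lower and 3 higher, where 8.47% of 6378 genes were higher and 5.82% lower. The medians were 0.611 and 0.740, against 1.04 over all genes. Egln3 had 7.18 CPM in ZC2 and 25.8 CPM in ZC3, a ratio of 0.278 (0.111 to 0.613), Bnip3 0.363 (0.245 to 0.525) and Ero1l 0.404 (0.275 to 0.584). Among the enzymes Tpi1 (0.538, 0.472 to 0.612), Pfkl (0.609) and Ldha (0.651) were lowest, and Ldhb (1.77), Aldoc (1.71) and Pfkfb4 (1.66) highest. Pdk3 (1.5), Hif1a (1.10) and Bnip3l (0.998) headed the HIF genes. Stress genes were lower in ZC2 for 5 of 10, and their part was not tested. With cells thinned to 2000 UMIs, 1 HIF gene was lower. Thinning leaves fewer UMIs, so genes can fall under the minimum of 30 UMIs, and the number still compared is not given here.

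Between ZC1 and ZC3 monocytes, 1 enzyme was higher, Pfkfb4 at 1.59 (0.911 to 2.77), and the HIF gene Mxi1 was higher (1.65, 1.09 to 2.52) and Ankrd37 lower (0.434, 0.253 to 0.717), where 11.6% of 6217 genes were higher and 5.81% lower. Mxi1 reversed to log2 ratios of -0.37 both with Leiden clusters and with cells thinned to 2000 UMIs. Aldoc (1.27), Ldhb (1.1), Hif1a (1.42) and Bnip3l (1.20) were above 1, and Pfkp (0.766), Hk3 (0.765), Hk1 (0.740), Egln1 (0.793) and Mif (0.791) below. The share of monocytes with a Slc2a1, Vegfa or Adm transcript was 29.1% in ZC1 (19.4 to 40.4), 26.1% in ZC2 (17.5 to 36.3) and 40.9% in ZC3 (31.8 to 50.4).

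CD8 T cells (63 in ZC1, 50 in ZC2 and 40 in ZC3) differed most between ZC1 and ZC3 in the enzymes. Of 12 glycolytic genes compared, 10 were lower in ZC1, and of 13 HIF genes 4 were lower and 1 higher, where 15.4% of 4521 genes were higher and 24.5% lower. Tpi1 had 279.6 CPM in ZC1 and 732 CPM in ZC3, a ratio of 0.382 (0.314 to 0.463), and Ldha 688 and 1765 CPM in the same order, a ratio of 0.390 (0.344 to 0.440). Pfkl was at 0.403, and Gpi1 (0.835), Hk1 (0.746) and Aldoa (0.659) were highest. Higd1a (0.382, 0.283 to 0.509), Ankrd37 (0.409), Ero1l (0.420) and Mif (0.457) were the lower HIF genes, while Hilpda (1.63, 0.757 to 3.57), Bnip3l (1.36) and Mxi1 (1.11) were above 1; Hilpda reversed under 3 alternatives, to log2 ratios of -0.07 to -0.16. All 10 proliferation genes were lower in ZC1, at 739 CPM in sum against 1975 CPM in ZC3, and median depth was 5615 against 9498.5 UMIs. Dissociation stress genes summed to 2643 CPM in ZC1 and 1870 CPM in ZC3. Of 8 stress genes compared, 3 were higher and 1 lower in ZC1. The part of proliferation, depth and stress was not tested. Over the alternatives, 6 to 12 glycolytic and 1 to 5 HIF genes were lower.

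Between ZC2 and ZC3 CD8 T cells, 1 of 13 glycolytic genes was lower, Pfkl at 0.581 (0.393 to 0.853), where 10.2% of 5142 genes were higher and 10.8% lower. Ldha (0.671) and Tpi1 (0.675) came next, and Hk2 (1.14), Pfkp (0.959) and Gpi1 (0.947) were highest. Among 13 HIF genes, Hilpda (1.85, 0.954 to 3.79) and Bnip3l (1.59) were higher, Pdk3 (1.31) was above 1, and Mif (0.645, 0.580 to 0.716) and Mxi1 (0.662, 0.296 to 1.45) were lower, with Ankrd37 at 0.677. The count of lower glycolytic genes ran from 1 to 6 over the alternatives, with 3 after free RNA was subtracted and 6 under the rule of at least 10 counts. With cells thinned to 2000 UMIs, Hilpda and Bnip3l reversed to log2 ratios of -0.32 and -0.50, and with cycling cells left out Pfkl and Bnip3l reversed to 0.33 and -0.09.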

How the data were processed

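The deposited matrix held whole-number UMI counts per feature and barcode for both libraries, made by the authors with Cell Ranger 4.0.0 on mm10, per the submitters' processing notes. Counts were used as deposited, scaled to CPM over gene UMIs and summed per set of cells. Members and lists were chosen with earlier results of these data known. Classes were gated on UMIs of fixed markers per 10000 (for example at least 20 of C1q genes for macrophages, 2 of Ly6c2 for monocytes, 5 of T cell genes). No doublet caller was run: barcodes with T cell and macrophage markers were set aside, and doublets of one type were not removed. Only genes with 30 or more UMIs across the pair of sets, and 3 or more expected in the smaller set, entered a comparison. With 1 set of cells no test was possible; levels carry exact Poisson, ratios exact conditional binomial and shares exact Clopper-Pearson 95% intervals, for counting error only. In each comparison the 3 highest and 3 lowest members of each list and the isozymes were named. Because the planned barcode rule left fewer than 20 macrophages in ZC1 and ZC2, the alternative relative to free RNA gave the regions. Alternatives were looser and stricter cell filters, doubled gates, Leiden clusters made without the members, means over cells, thinning, subtraction of free RNA, median-of-ratios scaling, leaving out cycling cells, no minimum of UMIs, other draws and depths for the split by hypoxia transcripts, and other barcode rules. A cluster took the class most common among its gated cells. In clusters called macrophage, 30.5% to 98.6% of the cells were in the macrophage gate. The ratio calculation was tested on simulated data. Promoters came from RefSeq. Software was scanpy 1.11.5 with igraph 0.11.9 for clusters and scipy 1.17.1 for intervals.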

Additional observations from a re-analysis of the deposited data

How the results depend on the processing

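Counts of members past 1.5-fold are given under each setting, with the value of the main analysis in parentheses where it differed. Under the stricter cell filter (2000 UMIs, 1000 genes, 5% mitochondrial), glycolytic genes lower in checkpoint-high CD8 T cells numbered 1 (2), glycolytic genes higher in transcript-positive monocytes 2 (6), glycolytic genes lower in ZC2 than ZC3 macrophages 0 (1), glycolytic and HIF genes higher in ZC1 than ZC2 macrophages 1 (0) and 1 (2), and glycolytic genes lower in CD8 T cells 6 (10) in ZC1 and 2 (1) in ZC2, both against ZC3. With Leiden clusters in place of gates, these were 0 (2) for checkpoint-high cells, 10 (6) for monocytes with a transcript, 0 (2) for HIF genes in ZC1 over ZC2 macrophages, 9 (5) for glycolytic genes lower in ZC2 than ZC3 monocytes, and 2 (1) glycolytic genes lower and 1 (2) HIF genes higher in ZC2 than ZC3 CD8 T cells; in checkpoint-high cells Hk3 and Ldhb reversed to log2 ratios of 2.25 (-1.79) and 0.16 (-0.80). With cells thinned to 2000 UMIs, checkpoint-high cells had 0 (2) glycolytic genes lower and 2 (5) HIF genes higher, and Hk3 reversed to a log2 ratio of 0.62. The same thinning gave 1 (0) glycolytic gene higher in ZC1 than ZC3 macrophages, 3 (1) lower in ZC2 than ZC3, 1 (0) glycolytic and 1 (2) HIF genes higher in ZC1 than ZC2, 0 (1) and 0 (1) higher in ZC1 than ZC3 monocytes, 1 (9) HIF gene lower in ZC2 than ZC3 monocytes, 1 (4) lower in ZC1 than ZC3 CD8 T cells and 0 (2) higher in ZC2 than ZC3 CD8 T cells. With cycling cells left out, checkpoint-high cells had 0 (2) glycolytic genes lower and Egln3 reversed to a log2 ratio of -0.35 (1.20); ZC1 over ZC3 macrophages had 0 (1) HIF genes higher; ZC2 under ZC3 macrophages had 6 (1) glycolytic and 8 (4) HIF genes lower; ZC1 over ZC2 had 1 (0) and 0 (2) higher; ZC1 over ZC3 monocytes had 0 (1) HIF genes higher, ZC2 under ZC3 monocytes 2 (5) glycolytic genes lower, and ZC2 against ZC3 CD8 T cells 2 (1) glycolytic genes lower and 1 (2) HIF genes higher. With no minimum of UMIs, 4 (2) glycolytic genes were lower in checkpoint-high cells, 1 (0) higher in ZC1 macrophages against ZC3 and 1 (0) against ZC2, 2 (1) HIF genes higher in ZC1 than ZC3 monocytes and 2 (1) glycolytic genes lower in ZC2 than ZC3 CD8 T cells. With means over cells, 9 (5) HIF genes were higher in checkpoint-high cells, 11 (6) glycolytic genes in monocytes with a transcript, 1 (0) glycolytic gene in ZC1 over ZC2 macrophages, and 0 (1) and 0 (2) HIF genes in ZC1 monocytes and ZC2 CD8 T cells over ZC3. A relative barcode rule at 2 times the next gave 1 (0) glycolytic gene higher in ZC1 macrophages over ZC3 and 1 (0) over ZC2, 8 (1) glycolytic and 8 (4) HIF genes lower in ZC2 than ZC3 macrophages and 2 (1) glycolytic genes lower in ZC2 than ZC3 CD8 T cells. Doubled gates gave 0 (1) HIF genes higher in ZC1 and 0 (1) glycolytic genes lower in ZC2 macrophages, 2 (1) HIF genes higher in ZC1 and 8 (5) glycolytic genes lower in ZC2 monocytes, and 2 (1) glycolytic genes lower and 1 (2) HIF genes higher in ZC2 CD8 T cells, all against ZC3. For glycolytic genes lower in ZC2 than ZC3 CD8 T cells, subtracting free RNA gave 3 (1) and the raw barcode rule 6 (1). Median-of-ratios scaling gave 6 (10) glycolytic genes higher in melanoma cells than macrophages; it moves all genes by 0.31 (log2) there and by 0.16 in macrophages over monocytes. Counts with thinned cells or smaller sets rest on fewer UMIs, so genes can fall under the minimum of 30 UMIs. The number of genes compared under each setting is not given here. The cause of these changes was not tested.

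Over the alternatives, single-gene values reversed, and calls past 1.5-fold were lost, as follows. None of 455 reversed and 5 of 371 calls were lost in transcript-positive over negative macrophages, 3 of 408 and 22 of 192 in the same split of monocytes, 0 of 370 and 13 of 210 in macrophages over monocytes, 4 of 310 and 18 of 90 in checkpoint-high over low cells, and 2 of 295 and 9 of 231 in melanoma cells over macrophages. In macrophages they were 1 of 407 and 4 of 22 for ZC1 over ZC3, 0 of 407 and 7 of 55 for ZC2 over ZC3, and 1 of 406 and 5 of 22 for ZC1 over ZC2. In monocytes they were 2 of 374 and 5 of 33 for ZC1 over ZC3, and 2 of 374 and 22 of 198 for ZC2 over ZC3. In CD8 T cells they were 3 of 273 and 18 of 163 for ZC1 over ZC3, and 4 of 311 and 18 of 60 for ZC2 over ZC3. Reversals not given beside their results were, as log2 ratios, Ak4 at 0.18 in ZC1 over ZC3 macrophages, Pdk3 at -0.68 in ZC2 over ZC3 monocytes and Mxi1 at -0.20 in melanoma cells over macrophages, all with thinned cells, and Aldoc at -0.97 in ZC2 over ZC3 monocytes with Leiden clusters.

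No paired analysis was possible because there was 1 set of cells. The stricter raw barcode rule gave no value, and the raw rule gave values only for ZC2 against ZC3 CD8 T cells. Intervals cover counting error only. The CD8 T cell region sets, of 40 to 63 cells, left 25 and 26 of 38 members compared for ZC1 and ZC2 over ZC3.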

Other observations

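Other genes of the pathway, named after their values were seen, also differed between the classes. Slc2a3, a high-affinity glucose transporter, stood at 34.6 CPM in CD8 T cells and 2.96 CPM in macrophages, whereas Slc16a3, which exports lactate, stood at 48.0 CPM in CD8 T cells and 175 CPM in macrophages. Eno3, the muscle enolase, stood at 422 CPM in nonclassical monocytes and 252 CPM in migratory dendritic cells, against 13.7 CPM in macrophages. Car9, a carbonic anhydrase and HIF target, stood at 165 CPM in melanoma cells and 10.0 CPM in macrophages. Taldo1, an enzyme of the pentose phosphate pathway, stood at 1007 CPM in cDC1 and 339 CPM in macrophages.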
